A study of Zea mays with 15 samples.

Results

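ARF7 and ARF27 are 2 of the 14 maize AUXIN RESPONSE FACTORS (ARFs) whose binding was profiled by DAP-seq. The pair was chosen by a measured value, the share of peaks that the lists have in common, which was lowest for ARF7 with ARF27 among all 91 pairs of lists. The ARF7 list held 29361 peaks and the ARF27 list 30665, so the pair covers 60026 of the 386300 peaks in the 14 lists. An ARF7 peak was counted as shared where an ARF27 summit lay at most 100 bp from its own summit, and the same rule was applied from the ARF27 side. A peak without such a neighbour is called alone. In DAP-seq a tagged transcription factor on beads is mixed with naked, sheared genomic DNA, and the retained fragments are sequenced. The DNA came from young field-grown ears of the inbred B73, with both ARFs made in E. coli as glutathione S-transferase (GST) fusions. ARF7 is encoded by GRMZM2G475263 and ARF27 by GRMZM2G160005. Peaks of both were called against the GST-HALO library, whose protein came from a wheat germ system, and the ARF27 reads were reduced to 20 M (M, 1000000) before calling whereas no such reduction is noted for ARF7.

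ARFs carry a B3 DNA-binding domain that recognizes short TGTC-containing elements, and they act at the end of the nuclear auxin pathway. At low auxin, Aux/IAA proteins hold activating ARFs in check, and auxin triggers the destruction of these repressors. Clade A holds the ARFs classed as transcriptional activators and clade B those classed as repressors, with ARF27 placed by the study in clade A and ARF7 in clade B. Each clade had 7 lists, so a site of either ARF can hold up to 6 other clade A lists and 6 other clade B lists. In naked DNA there is no chromatin and no other protein to restrict binding. The DNA was amplified after binding. The paper names DNA methylation as something that could alter ARF binding, and its part here was not tested.

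Each ARF had 1 library, and the pair was picked for its low overlap. All values below therefore describe these lists, no test was made, and 95% Wilson intervals over peaks cover counting error only. Fragments were amplified without unique tags and peaks close together depend on each other, so a repeat library could differ by more than these intervals.

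The ARF7 list had 4842 shared peaks, or 16.5% of the list (16.1% to 16.9%), and 24519 peaks alone. The ARF27 list had 5052 shared peaks, also 16.5% (16.1% to 16.9%), and 25613 alone. The background share over each whole list is this same value, 16.5%, because the rule counts all peaks. With 90% reciprocal overlap, a summit distance of at most 20 bp, the shares were 11.2% for ARF7 and 10.8% for ARF27. Other lists lay nearer to each of the 2. ARF14, another clade B protein, had a summit at 60.6% of ARF7 peaks, and ARF34, another clade A protein with the longest list (74603 peaks), had one at 81.9% of ARF27 peaks.

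The place of this pair at the end of the order depended on list size. The share of the smaller list was 16.5% for ARF7 with ARF27 and 16.6% (16.2% to 17.0%) for ARF4 with ARF7, a difference within counting error. With each list cut to its 7520 strongest peaks, the length of the shortest list, ARF7 shared 11.5% (10.8% to 12.3%) with ARF27. The pair was then 20th from the lowest of the 91 pairs. The lowest at equal sizes was ARF35 with ARF14 at 8.27%, and the median over the 49 pairs across the clades was 12.5%, against 23.5% with whole lists. At equal sizes the label of the most distant pair does not hold.

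At the edge of the rule, peaks just inside and just outside the 100 bp limit had similar signals. Only ARF7 peaks had fewer other lists just outside it. The deposited signal is the read depth that the peak caller GEM assigned to a peak, unscaled between libraries, so it is compared between lists only as a rank, the percentage of the own list lying below it. Among ARF7 peaks, 57 had their nearest ARF27 summit at 91 to 100 bp (median rank 44.8) and 34 at 101 to 110 bp (median rank 42.5). Among ARF27 peaks, 73 lay just inside (median rank 56.0) and 49 just outside (median rank 54.6). ARF7 peaks just inside had medians of 3 other clade A and 4 other clade B lists, against 1.5 and 2.5 just outside. For ARF27 these medians were 4 and 2 inside, against 4 and 3 outside.

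Shared peaks were stronger in both lists. The median rank of shared ARF7 peaks was 60.3, with a median signal of 47.9, against 48.2 and 40.7 for ARF7 peaks alone. For ARF27, shared peaks had a median rank of 66.7 and a signal of 67, against 47.0 and 49 for peaks alone. The ranges overlapped widely. The middle 50% of ARF7 signals ran from 34 to 78 for shared peaks and from 31.5 to 59 for peaks alone. The same range for ARF27 ran from 44 to 121 for shared peaks and from 37 to 74 for those alone.

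The rise was steepest at the top. With each list split into 10 parts by signal, from the weakest to the strongest part, the shared percentage ran from 11.5% to 29.4% in the ARF7 list and from 10.7% to 35.0% in the ARF27 list. Of the 100 strongest peaks, 60 of ARF7 (50.2% to 69.1%) and 53 of ARF27 (43.3% to 62.5%) were shared. Even in its strongest part, each list therefore held a majority of peaks without a partner: 2076 of 2939 for ARF7 and 1993 of 3067 for ARF27.

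**Figure D1:**
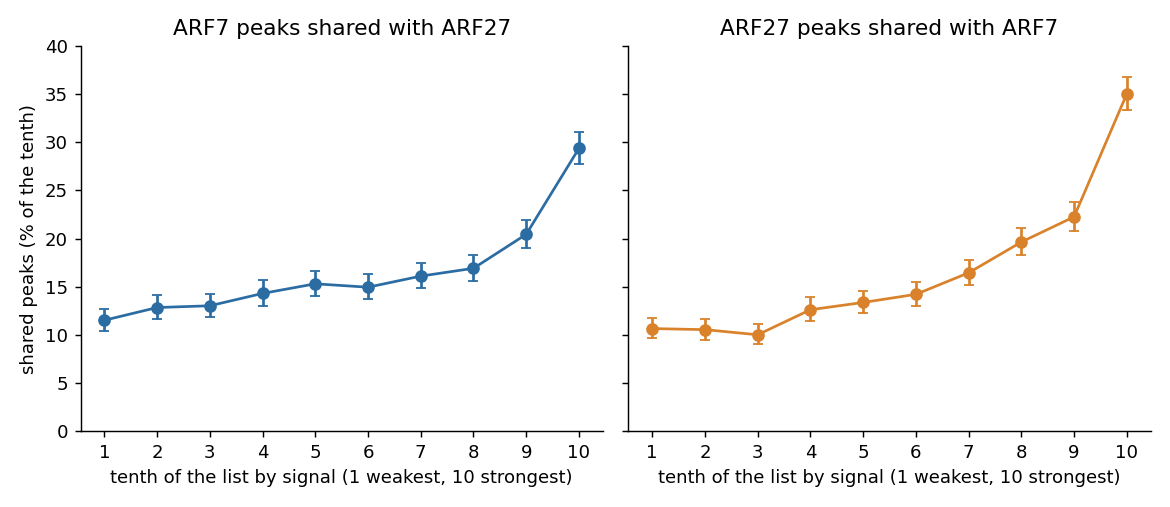
Percentage of peaks shared (vertical axis) in 10 parts of the list in order of signal, from weakest (1) to strongest (10), for ARF7 peaks on the left and ARF27 peaks on the right; bars are 95% Wilson intervals over peaks. The strongest part stands apart from the rest in both lists, at 29.4% for ARF7 and 35.0% for ARF27.

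Where both proteins had a peak, the signals of the 2 were weakly related. Matching peaks that were nearest to each other in both directions gave 4692 pairs. Across these pairs, Spearman's rho between the ARF7 and ARF27 signals was 0.21. Without the sites of all 14 lists it was 0.13, and at the 536 pairs with all 12 other lists it was 0.31. The median ARF27 rank was 54.7 at pairs in the weakest 20% of the ARF7 list and 74.97 at those in the strongest 20%. This is a correlation over peaks of a single library per ARF, and peaks are not replicates. Pairs in the strongest 20% of both lists numbered 638, or 13.6% of all pairs. In 172 pairs the ARF7 peak was in its weakest 20% and the ARF27 peak in its strongest 20%, and in 111 pairs the reverse held. Pairs with a top ARF7 peak but a weak ARF27 peak had a median of 2 other clade A and 6 other clade B lists at the site, whereas those with a weak ARF7 peak but a top ARF27 peak had 5.5 and 4.

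The strongest shared sites were held by every list. The 5 pairs of highest mean rank all carried summits of the 12 other ARFs. The first lay on chromosome 5 at 116422225 to 116422425 (ARF7 peak, B73 RefGen version 3), with a signal of 343 for ARF7 and 1072 for ARF27. The next was on chromosome 7 at 172406149 to 172406349, with 344 for ARF7 and 792 for ARF27. The others lay on chromosome 5 at 196227657 to 196227857, on chromosome 4 at 125780192 to 125780392 and on chromosome 6 at 133279093 to 133279293. All 5 ranked at 99.8 or above in both lists, and their summits were 1 to 10 bp apart. Genes near these sites were not analysed here, because no annotation of this build was used.

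A few shared sites were at opposite ends of the 2 lists. On chromosome 2 at 160957749 to 160957949, the ARF7 peak had a signal of 156 (rank 98.2) and the ARF27 peak 24.8 (rank 1.90), although the summits were 2 bp apart. The 6 other clade B lists had ranks of 95.7 to 99.3 there, whereas the 5 other clade A lists present, all but ARF35, had ranks of 46.6 to 93.7. The reverse was seen on chromosome 1 at 225750432 to 225750632, with 23.9 for ARF7 (rank 1.55) and 291.5 for ARF27 (rank 98.2). All 12 other lists were present at that site. The clade A peaks there ranked from 83.0 to 98.7, whereas the clade B peaks ranked from 12.9 to 76.8. The other 2 pairs with a far higher ARF7 rank lay on chromosome 3 at 188659105 to 188659305 (ARF7 rank 96.4, ARF27 rank 2.91, with ARF34 as the only other clade A list) and on chromosome 4 at 122070956 to 122071156 (ARF7 rank 93.6, ARF27 rank 1.09). Those with a far higher ARF27 rank lay on chromosome 10 at 92147556 to 92147756 (ARF7 rank 2.80, ARF27 rank 97.2) and on chromosome 7 at 158977283 to 158977483 (ARF7 rank 3.26, ARF27 rank 97.3). Each of these 4 sites held at least 5 other clade B lists, whereas the number of other clade A lists was 1 or 3 where ARF7 ranked high and 5 or 6 where ARF27 did.

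Shared peaks and peaks alone also differed in which of the other 12 lists were at the site. Of the shared peaks, 86.0% in the ARF7 list and 86.2% in the ARF27 list had at least 1 further list of each clade. Of ARF7 peaks alone, 81.6% (81.1% to 82.1%) had no clade A list at all. Of ARF27 peaks alone, 74.7% (74.2% to 75.2%) had no clade B list. Over each whole list the same shares were 69.4% for ARF7 and 63.7% for ARF27. Among peaks alone they were lower at high signal, at 57.7% for ARF7 and 46.7% for ARF27 in the strongest of the 10 signal parts.

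The lists differed in how well their own clade covered them, in the peaks alone as in all peaks. No other clade B list was present at 35.4% of ARF7 peaks alone, whereas no other clade A list was present at 11.4% of ARF27 peaks alone. Over all peaks these shares were 30.8% for ARF7 and 10.7% for ARF27. Peaks in none of the 12 other lists made up 33.5% (32.9% to 34.1%) of ARF7 peaks alone, against 9.47% (9.12% to 9.84%) of ARF27 peaks alone. Over all peaks the shares were 28.2% for ARF7 and 8.11% for ARF27, so the contrast was one of the whole lists. These private peaks were weak, with a median rank of 32.1 for ARF7 and 25.2 for ARF27. Their share fell with signal. Among ARF7 peaks alone it was 52.6% in the weakest of the 10 parts and 3.66% in the strongest. For ARF27 the same shares were 18.6% and 0.0502%. With 90% reciprocal overlap, private peaks made up 46.6% of ARF7 peaks alone and 20.9% of ARF27 peaks alone. List lengths differ among the 12 lists, from 7520 to 74603 peaks, and their part in these shares was not tested.

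The commonest sets of companions followed the clades. Besides the 8223 private peaks, ARF7 peaks alone most often had all 6 other clade B lists and no clade A list (2526 peaks, median rank 70.7), or ARF14 only (2106 peaks, median rank 51.1). The most frequent set at ARF27 peaks alone was ARF16 with ARF34 (3636 peaks, median rank 37.1), followed by no other list (2426) and ARF34 only (1967). A further 1387 ARF27 peaks alone held all 6 other clade A lists and no clade B list, and these were strong, at a median rank of 83.8. Among shared peaks the commonest set in either list was all 12 others, with 550 ARF7 peaks and 624 ARF27 peaks.

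**Figure D2:**
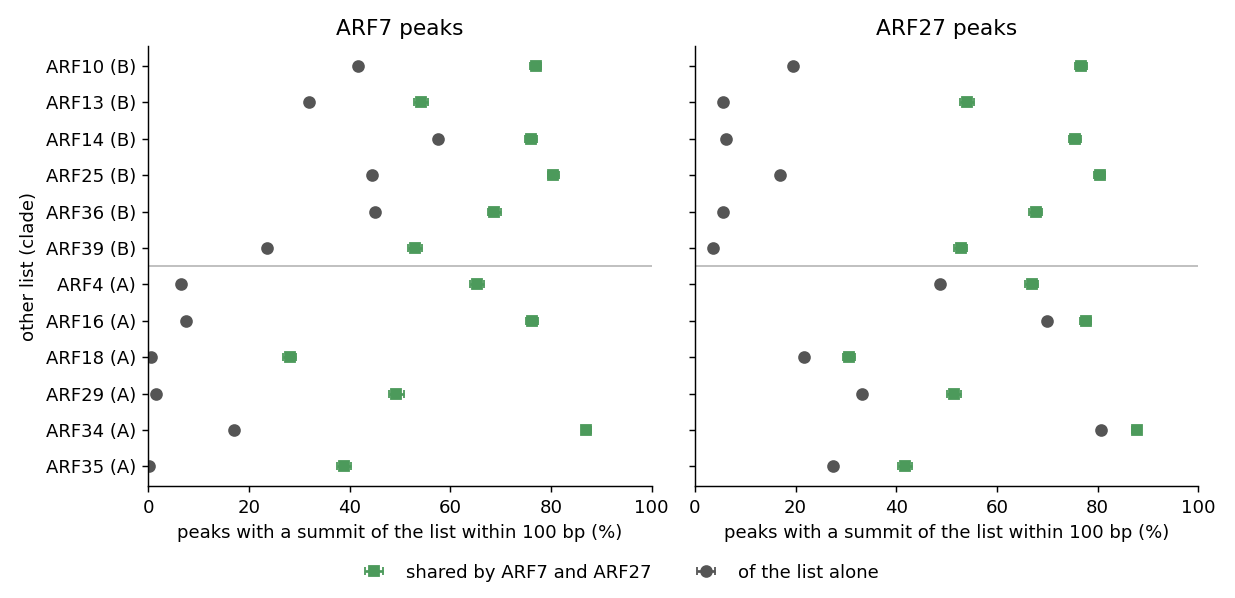
Percentage of peaks that had a summit of each other list within 100 bp (horizontal axis), for ARF7 peaks on the left and ARF27 peaks on the right; clade B lists stand above the line and clade A lists below it, squares are shared peaks, circles are peaks of the list alone, and bars are 95% Wilson intervals. At ARF7 peaks alone the clade A lists run from 0.0938% (ARF35) to 17.0% (ARF34), whereas at ARF27 peaks alone they run from 21.7% (ARF18) to 80.7% (ARF34).

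Read from the other direction, the number of lists of the partner's clade tracked sharing closely. ARF7 peaks with no other clade A list were shared with ARF27 in 1.81% of cases (370 of 20387). The share was 18.6% with 1 such list, 41.9% with 2, 49.9% with 3, 72.6% with 4 and 92.1% with 5. All 950 ARF7 peaks that held the 6 other clade A lists also held ARF27. ARF27 peaks with no other clade B list were shared with ARF7 in 2.03% of cases (397 of 19531), and those with all 6 in 87.6% (1856 of 2119). Lists of the own clade moved the share much less. Over 0 to 6 other clade B lists, ARF7 peaks were shared in 4.11% to 28.2% of cases, and over 0 to 6 other clade A lists, ARF27 peaks were shared in 11.02% to 29.1%.

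**Figure D3:**
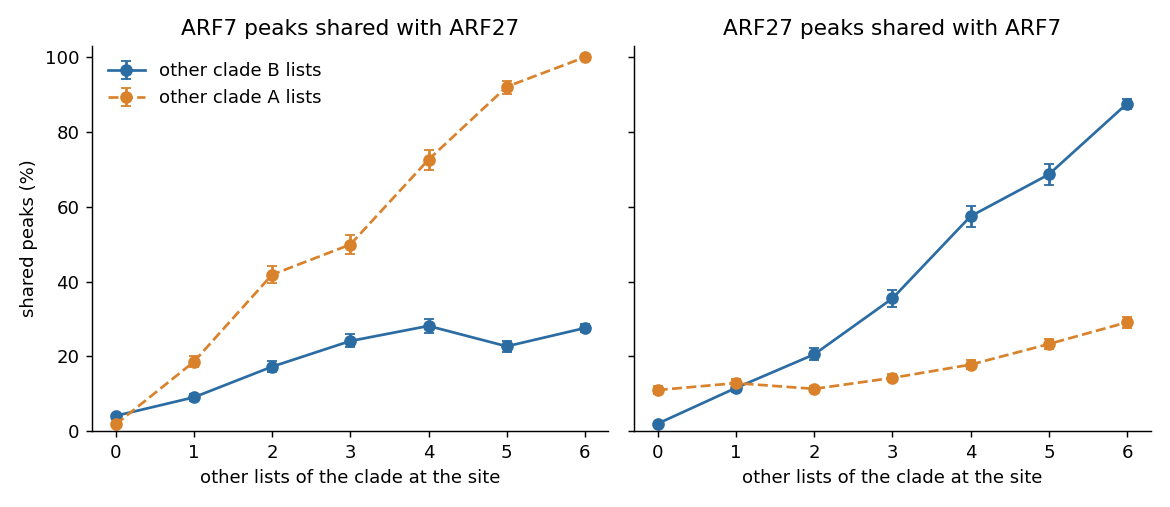
Percentage of ARF7 peaks shared with ARF27 (left) and of ARF27 peaks shared with ARF7 (right) by the number of other clade B lists (solid lines) or other clade A lists (dashed lines) at the site; bars are 95% Wilson intervals over peaks. The steep line is that of the partner's clade in both panels, reaching 100% at 6 clade A lists for ARF7 peaks and 87.6% at 6 clade B lists for ARF27 peaks.

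Single lists differed in how often peaks at their sites were shared, and their overlap over whole lists differed in much the same way. Among ARF7 peaks that held ARF35, a clade A protein with 9198 peaks, 98.8% (98.2% to 99.2%) also held ARF27, and only 23 ARF7 peaks alone had ARF35. The ARF35 list is itself close to that of ARF27, which had a summit at 91.7% of all ARF35 peaks. At ARF7 peaks holding ARF18 or ARF29 the shares were 90.8% and 86.3%. ARF27 had a summit at 87.4% of all ARF18 peaks and 75.1% of all ARF29 peaks. ARF7 peaks holding ARF4 or ARF16 were shared in 66.3% and 67.0% of cases, and those holding ARF34 in 50.3%. Over all peaks of ARF4, ARF16 and ARF34, ARF27 had a summit at 54.0%, 54.3% and 35.5%. On the ARF27 side no clade B list reached the shares seen with ARF35, ARF18 or ARF29. ARF27 peaks were shared in 74.1% of cases with ARF39 at the site, 70.9% with ARF14 and 70.9% with ARF36, but in 43.8% with ARF10 and 48.4% with ARF25. Over whole lists, ARF7 had a summit at 76.8% of ARF39, 62.2% of ARF14 and 63.4% of ARF36 peaks. For ARF10 and ARF25 this was 40.1% and 38.0%. The share with ARF39 was thus not above that of its whole list.

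At any fixed number of other clade A lists from 1 to 5, ARF7 sites with all 6 other clade B lists were shared less often than sites with fewer. With 3 other clade A lists, ARF7 peaks were shared in 71.2% to 77.8% of cases at 0 to 5 other clade B lists, but in 28.2% (230 of 815) at 6. The 585 peaks alone in that last group held ARF34 in 99.7%, ARF16 in 98.6% and ARF4 in 98.5% of cases, and ARF35 in none. The 230 shared peaks of the group held ARF34 in 95.7%, ARF16 in 93.0%, ARF4 in 79.6% and ARF35 in 13.5% of cases. Of all ARF7 peaks alone, 0.0938% held ARF35. Peaks with exactly ARF4, ARF16, ARF34 and the 6 other clade B lists numbered 728, of which 162 were shared with ARF27 (22.3%, 19.4% to 25.4%). The whole set ranked high in the ARF7 list, with a median rank of 89.8 for those without ARF27 and 86.8 for those with it. The same dip was seen with 2 clade A lists (27.6% at 6 other clade B lists, 44.9% to 56.6% below) and with 4 (57.2% against 82.1% to 91.1%). These cells were noticed after the values were seen.

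On the ARF27 side the change with lists of the own clade depended on the number of other clade B lists. With 3 other clade B lists, ARF27 peaks were shared with ARF7 in 33.2% to 43.5% of cases at 0 to 5 other clade A lists and in 27.95% at 6. With 2 the shares were 17.2% to 27.7%, and 12.9% at 6 other clade A lists. With 5 there was no such fall, at 62.5% to 77.3%, and 63.1% at 6. With all 6 other clade B lists present, ARF27 peaks were shared with ARF7 in 78.0% to 91.0% of cases, whatever the number of other clade A lists. With no other clade B list the share stayed between 1.85% and 2.45%, also at the 1414 sites with all 6 other clade A lists (1.91%).

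At sites with all 12 other lists, every ARF7 peak was shared and most ARF27 peaks were. Of the 690 ARF27 peaks at such sites, 624 (90.4%) were shared and 66 were alone, the latter with a median rank of 91.3. All 550 ARF7 peaks at such sites were shared. Of those 66 ARF27 peaks, 4 had an ARF7 summit within 200 bp and 57 had none within 1000 bp. Of the 823 ARF7 peaks with 5 other clade A lists, 65 were alone. Of these 65 ARF7 peaks, 59 lacked ARF35, and 61 had no ARF27 summit within 1000 bp.

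The strongest peaks of each list alone were mostly not free of the partner's clade: 4 of the 5 named for ARF7 held 1 to 3 clade A lists, and all 5 named for ARF27 held 1 to 3 clade B lists. The ARF7 peak alone of highest signal was on chromosome 1 at 112334814 to 112335014, with a signal of 319, all 6 other clade B lists and ARF34. The nearest ARF27 summit was 1774 bp away. The second, on chromosome 2 at 214959345 to 214959545 (signal 309), held 3 clade B lists and no clade A list, and its nearest ARF27 summit was 140529 bp away. The other 3, on chromosome 2 at 145071621 to 145071821, chromosome 7 at 150790498 to 150790698 and chromosome 4 at 13058950 to 13059150, had signals of 282.7 to 306.1 and 2 or 3 clade A lists. None of these 5 sites held ARF35, ARF29 or ARF18. These lists were rare at all ARF7 peaks alone, at 0.0938%, 1.55% and 0.559%.

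The ARF27 peak alone of highest signal was the strongest peak of its list. It lay on chromosome 6 at 167839289 to 167839489, with a signal of 1282.9, and the nearest ARF7 summit was 21693 bp away. The next 4 were on chromosome 6 at 135400321 to 135400521, chromosome 5 at 54009353 to 54009553, chromosome 7 at 173293401 to 173293601 and chromosome 9 at 121335368 to 121335568, with signals of 892 to 1015.7. All 5 held the 6 other clade A lists. Each also held ARF10, and 4 of them ARF25, the clade B lists found most often at ARF27 peaks alone (19.4% and 16.9%). Of the other clade B lists, only ARF13 was present, at 1 of the 5 sites.

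The 2 lists were laid out differently along the chromosomes. ARF7 peaks alone were nearly even, at 11.2 to 12.9 peaks per Mb in 10 equal parts of the chromosome length, summed over the 10 chromosomes. ARF27 peaks alone were dense near the ends, at 17.7 and 19.9 per Mb in the first and last part, against 6.78 per Mb in the fifth. Shared ARF7 peaks had the profile of the ARF27 list, at 3.44 and 3.73 per Mb at the ends and 1.32 in the fourth part. In maize the chromosome arms are gene-rich and the regions around the centromeres are repeat-rich. Reads below a mapping-quality limit had been removed, and the part of mappability in these profiles was not tested.

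**Figure D4:**
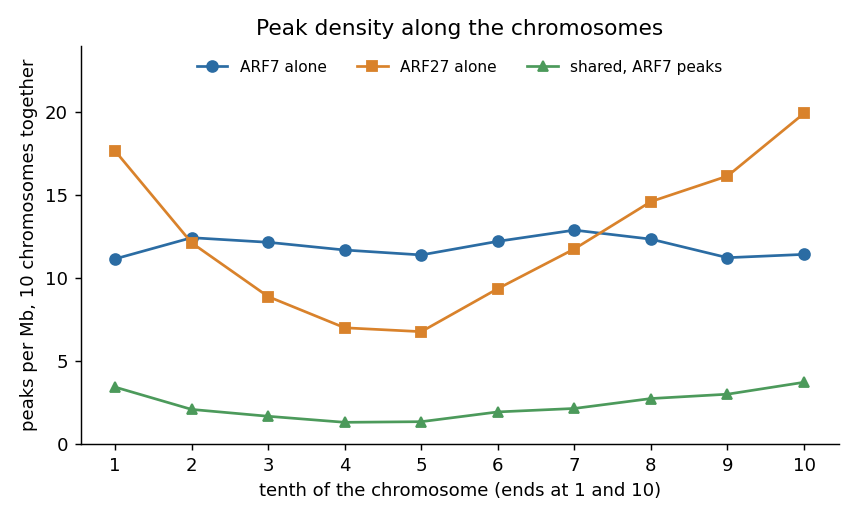
Peaks per Mb in 10 equal parts of the chromosome length, with the 10 chromosomes added together, for ARF7 peaks alone (circles), ARF27 peaks alone (squares) and shared ARF7 peaks (triangles). ARF7 peaks alone stay between 11.2 and 12.9 per Mb, ARF27 peaks alone range from 6.78 to 19.9, and shared peaks follow the shape of the ARF27 line at a lower level.

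The outer zone, taken as the 10% of length next to either end and 20% in all, held 18.99% of ARF7 peaks alone (18.5% to 19.5%). It also held 30.2% of ARF27 peaks alone (29.7% to 30.8%), 30.5% of shared ARF7 peaks and 31.1% of shared ARF27 peaks. By chromosome, the values ran from 17.6% to 20.0% for ARF7 peaks alone and from 24.9% to 34.7% for ARF27 peaks alone, so that the ranges of the 10 chromosomes did not overlap. Between no and all 6 other lists of the own clade, the share in the outer zone moved little. ARF7 peaks alone had 19.9% in the outer zone with no other clade B list and 17.0% with all 6, and ARF27 peaks alone had 29.95% with no other clade A list and 32.5% with all 6. ARF7 peaks alone with 1 to 4 other clade A lists stayed between 14.6% and 18.8%, below the shared peaks with the same numbers of lists (27.3% to 30.6%). The 65 ARF7 peaks alone with 5 other clade A lists were the exception, with 40% in the outer zone (29.0% to 52.1%) against 29.2% of shared peaks with 5 such lists. Shared ARF7 peaks with all 6 had 34.8% there.

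As a result the ratio of the lists changed along the chromosome. ARF7 had 0.685 peaks per ARF27 peak in the first part, 1.56 in the fifth and 0.635 in the last. Over 200 windows of 10 Mb the ratio ran from 0.468 to 3.19. The lowest was in the window on chromosome 8 that starts at 160000001, with 141 ARF7 and 301 ARF27 peaks. The highest was on chromosome 7 from 60000001, with 118 ARF7 and 37 ARF27 peaks. All 11 windows with a ratio of 2 or more were centred between 0.301 and 0.528 of the chromosome length. Across the 200 windows, numbers of ARF7 peaks alone and ARF27 peaks alone had a Spearman's rho of -0.01, whereas ARF27 peaks alone and shared peaks had 0.83. Neighbouring windows share their place on the chromosome, so these are descriptions.

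The percentage of peaks that were shared varied along the chromosome for ARF7 and little for ARF27. ARF7 peaks were shared in 23.6% and 24.6% of cases in the first and last part and in 10.1% in the fourth. ARF27 peaks were shared at nearly the same rate everywhere, from 15.2% to 17.2%. Between whole chromosomes the shares were close, from 14.1% (chromosome 7) to 17.8% (chromosome 3) for ARF7 and from 13.97% (chromosome 7) to 17.4% (chromosome 3) for ARF27.

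Distances to the other list depend on its density. By chromosome this was 13.6 to 16.0 peaks per Mb for ARF27 and 13.4 to 15.0 for ARF7. The distances that these densities alone would give were not computed. The median distance from an ARF7 peak alone to the nearest ARF27 summit was 31226 bp, and from an ARF27 peak alone to the nearest ARF7 summit 22619 bp. With all lists limited to peaks whose −log10 q reached 10, the medians were 66049 bp for ARF7 and 56460 bp for ARF27, and at equal list sizes 122231 bp and 92009 bp. Both settings hold fewer peaks, which lengthens the distances. Near misses were a small part of each list. Of ARF7 peaks 0.657% (193), and of ARF27 peaks 1.00% (307), had their nearest partner at 101 to 200 bp. At this distance the 201 bp peaks still touched. A further 2.08% of ARF7 peaks and 3.68% of ARF27 peaks had their nearest partner at 201 to 1000 bp. In the outer zone ARF7 peaks alone were 21506 bp from ARF27 at the median, against 34132 bp in the inner 80%, where ARF27 peaks are sparse. For ARF27 peaks alone the corresponding medians were 20951 bp and 23415 bp. ARF27 peaks alone in the strongest of the 10 signal parts had an ARF7 summit within 1000 bp in 7.48% of cases, against 3.69% in the weakest, whereas for ARF7 peaks alone the same shares were 1.97% and 2.90%.

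Within the shared class the summits often lay at 1 exact distance. In 1950 of the 4692 matched pairs, or 41.6%, the ARF7 and ARF27 summits were 2 bp apart, with the ARF7 summit at the higher coordinate in 983 and at the lower in 967. Only 25 pairs had the same base as summit, and 56 were 1 bp apart. Every distance from 3 to 14 bp had 56 to 89 pairs, and the next most frequent distance was 15 bp with 118. GEM uses enriched short sequence words to place each summit, and its words for the 2 libraries were not compared here.

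Pairs 2 bp apart were found at all signal levels and more often at sites with many clade A lists. Their share among matched pairs was 43.4% in the weakest and 39.8% in the strongest 20% of ARF7 peaks, and 38.6% and 42.7% for ARF27. It was 41.3% where no other clade A list was present, 35.1% (31.7% to 38.7%) with 2 and 49.1% (45.9% to 52.3%) with all 6. All 6 other clade A lists were present at 23.5% of the 2 bp pairs, against 17.3% of the pairs at other distances. Pairs at 2 bp lay in the outer zone in 32.0% of cases, against 29.7% of the pairs at other distances. Spearman's rho of the signals was 0.16 at the 1950 pairs 2 bp apart and 0.24 at the other 2742.

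**Figure D5:**
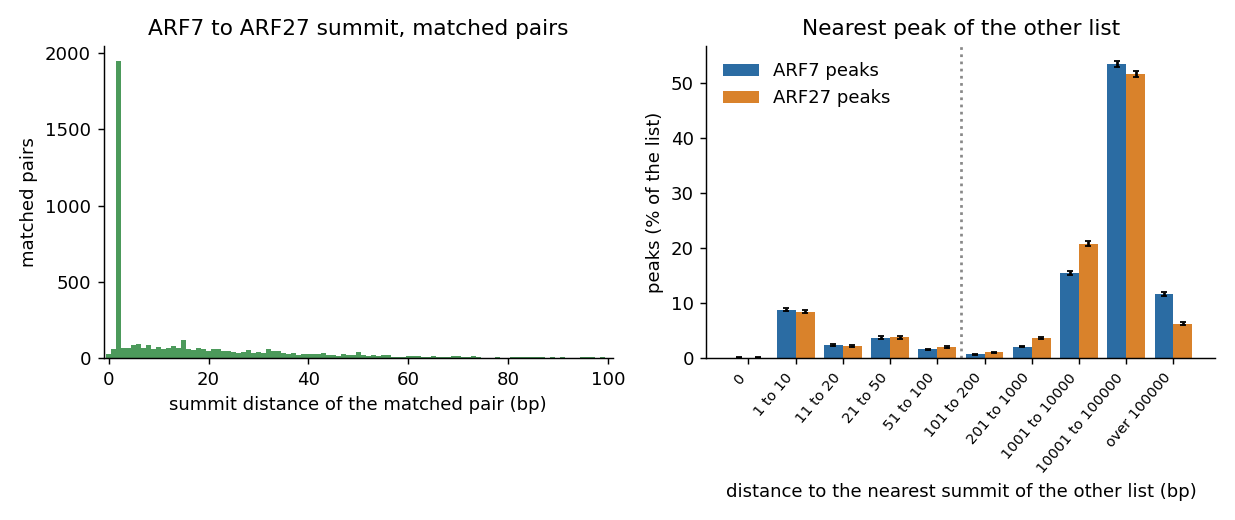
Left, number of matched pairs by distance between the ARF7 and the ARF27 summit in bp; right, percentage of each list by distance to the nearest summit of the other list, ARF7 left of ARF27 in each group, with 95% Wilson intervals and a dotted line at the 100 bp limit. The bar at 2 bp holds 1950 of 4692 pairs, and few peaks lie between 101 and 1000 bp from the other list.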

How the data were processed

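DAP-seq peak lists of 14 ARFs, with 1 library each, were used. Per the study's methods, the authors used trimmomatic for trimming and Bowtie2 2.2.8 for mapping to B73 RefGen version 3 (nuclear chromosomes), kept mapping qualities above 30 and called peaks per library with GEM against GST-HALO at a false discovery limit of 1e-05. The deposited signal is read depth in the peak, unscaled between libraries. The deposited q-values are on the −log10 scale. They were 5.04 or more for ARF7 and 5 or more for ARF27, which also reached a ceiling of 999. The ARF27 library was reduced to 20 M reads. The depth of ARF7 is not given in the sources used here, and depth can move list size. Whether the lists still hold the regions that the study excluded from some analyses is not stated, and nothing was removed.

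Every peak was 201 bp wide, so 50% reciprocal overlap, the study's rule, equals a summit distance of at most 100 bp. A list was counted at a site where it had a summit within 100 bp of the ARF7 or ARF27 summit. Rank is the percentage of the own list with lower signal, ties counted in the middle. Chromosome length was the largest peak end in any list. Coordinates are 1-based. Clades are those of the study and describe lists, not groups of samples. Sites were named as the 5 matched pairs of highest mean rank, the 5 strongest peaks of each list alone, and pairs of largest rank difference in each direction. Members and lists were chosen with earlier results of these data known. The alternatives were overlap by 1 bp, equal list sizes (7520 peaks), 90% reciprocal overlap, peaks whose −log10 q reached 10, removal of sites of all 14 lists, and an outer zone of 40%. Sequence content was planned but needs the genome of this build and was not analysed here. Python 3.11.15, numpy 2.4.6, scipy 1.17.1 and pandas 2.3.3 were used. Overlaps were checked against bedtools 2.31.1 in 26 comparisons, which differed by 0 peaks, and on simulated lists.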

Additional observations from a re-analysis of the deposited data

How the results depend on the processing

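Of 83 recomputed values, 10 of peaks alone could not move, because those peaks cannot lie at sites of all 14 lists. Of the other 73, 23 stayed within the main interval and 50 moved beyond it. Under all 5 alternatives that change the peaks or the overlap rule, shared peaks had a higher median rank than peaks alone in both lists, and shared ARF7 peaks and ARF27 peaks alone both lay in the outer zone more often than ARF7 peaks alone. The share of ARF7 peaks shared with ARF27 was 17.1% with overlap by 1 bp, 11.2% with 90% reciprocal overlap, 13.5% at a −log10 q of at least 10, 11.5% at equal list sizes and 14.9% without sites of all 14 lists. The share of ARF27 peaks was 17.5%, 10.8%, 12.3%, 12.1% and 14.7% in the same order. ARF7 peaks alone had no other clade A list in 80.9%, 85.9%, 81.1% and 87.9% under the first 4 alternatives, and ARF27 peaks alone no other clade B list in 73.5%, 81.4%, 78.8% and 83.0%. The outer zone held 19.7% of ARF7 peaks alone with 90% reciprocal overlap and 17.7% with the stricter q, and 32.7% of ARF27 peaks alone with the stricter q and 33.9% at equal sizes. With an outer zone of 40% these shares were 38.9% for ARF7 and 53.0% for ARF27. The 90% rule counts fewer lists at every site by its construction, and the equal-size rule removes the weaker peaks. Overlap by 1 bp can only raise the shared percentage. Removing sites of all 14 lists takes out shared peaks only, which lowers it. The outer zone of 40% contains that of 20% and so must hold at least as many peaks. The direction of these moves was therefore fixed in advance. The cause of the remaining moves was not tested. No paired analysis was possible because each ARF had 1 library. The missing depth of ARF7 limits any reading of list length.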
